A study of Mus musculus with 6 samples.

Results

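The perilipins, CIDE proteins and FIT proteins coat or build the lipid droplets in which fat cells store triglyceride. Their genes were taken from the table of interscapular brown fat by symbol: Plin1, Plin2, Plin3, Plin4 and Plin5, Cidea, Cideb and Cidec, and Fitm1 and Fitm2. All 10 were found among the 19241 genes listed, and 9 passed the filter on low values, the exception being Cideb. Newborn mice gave the tissue, and bulk RNA sequencing covered 3 libraries of the genotype Fstl1-floxed, called WT, and 3 of the genotype Myf5-Fstl1 KO, called KO. Fstl1 encodes a secreted glycoprotein, and Myf5, after which the knockout is named, is active in precursors of skeletal muscle and of much of the interscapular brown fat. The labels do not say whether the WT mice carried a Cre allele, which Cre line was used, or whether a library came from 1 animal. The p-values then measure the spread between these libraries only.

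A lipid droplet is a core of triglyceride and sterol esters under a single layer of phospholipid, and proteins that sit on this layer decide how the core grows and how it is broken down. Perilipins form the coat and control the access of lipases. CIDE proteins gather where droplets touch and let lipid pass from the smaller to the larger one, and FIT proteins act in the endoplasmic reticulum, where new droplets bud. Brown adipocytes hold many small droplets beside their mitochondria and burn the released fatty acids to make heat.

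The labels were checked first. Fstl1 lay at 54.4 to 130.04 FPKM in WT and at 7.93 to 13.1 FPKM in KO, where FPKM is the fragment count of a gene scaled to its transcript length and to the mapped fragments of the library. Of 8 adipocyte markers, Fabp4 and Adipoq did not pass the test (limma, adjusted p 0.85 and 0.392), and their KO means were 95.1% and 118% of the WT means. The other markers, of which some were lower and some higher in KO, are given further below. Ucp1, a brown adipocyte marker, had a KO mean of 48.9% of the WT mean and did not pass (limma, adjusted p 0.0804). Xist lay at 44.8 to 85.5 FPKM in WT and at most at 0.92 FPKM in KO, while 4 Y-linked genes lay at 7.39 to 99.3 FPKM in KO and at most at 0.23 FPKM in WT. Sex thus coincided with genotype in these libraries, and their effects cannot be told apart in any difference given here. The steps between low values put the depth at about 13900000 to 15000000 reads for each library. Of 13331 genes tested with limma on log2(FPKM + 1), 2.21% passed an adjusted p of 0.05, 1.01% lower and 1.21% higher in KO.

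Plin1 and Plin5 were the members that passed the test, both lower in KO and to about the same extent. Both calls were lost when certain single libraries were left out, as given below. Plin5 lies next to Plin4 on chromosome 17 (GRCm38, the build also known as mm10), and Plin4 did not pass the test. Plin4 (chr17:56100591-56109803) and Plin5 (chr17:56111601-56117596) are both on the minus strand and are separated by 1797 bases, while Plin3 (chr17:56277476-56292873) lies a further 159879 bases away. Plin1 is on chromosome 7 (chr7:79720218-79732903, minus strand). The sequences before the starts of Plin1 and Plin5, which passed, and of Plin4, the neighbour that did not pass, are shown so that they can be compared. They come from RefSeq on GRCm38.p6, run 5′ to 3′ on the strand of the gene, and were cut short where GENCODE vM21 annotates a transcript of the gene. Capitals mark matches to the motifs searched.
Plin1 (chr7:79732904-79733026): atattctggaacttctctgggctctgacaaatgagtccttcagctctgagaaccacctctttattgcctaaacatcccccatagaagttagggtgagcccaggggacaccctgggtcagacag
Plin5 (chr17:56117597-56117798): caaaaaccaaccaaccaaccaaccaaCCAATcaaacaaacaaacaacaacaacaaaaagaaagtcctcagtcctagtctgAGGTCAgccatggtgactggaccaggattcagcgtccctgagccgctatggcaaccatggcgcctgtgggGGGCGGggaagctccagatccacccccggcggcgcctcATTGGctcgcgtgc
Plin4 (chr17:56109804-56110032): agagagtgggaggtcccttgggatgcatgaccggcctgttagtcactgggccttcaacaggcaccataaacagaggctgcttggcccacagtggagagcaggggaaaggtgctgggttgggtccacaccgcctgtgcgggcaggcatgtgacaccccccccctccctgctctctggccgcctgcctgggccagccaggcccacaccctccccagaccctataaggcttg

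The motifs were searched on both strands in the 250 bases before each RefSeq start of a member: the nuclear receptor half-site AGGTCA, the DR1 element (a direct repeat of that half-site with a spacer of 1 base, whose copies also count as half-sites), the TATA box TATAAA, the GC box GGGCGG, the E-box CACGTG and the CCAAT box CCAAT. Plin5 has 2 such starts. The window of the first, from which the shown stretch comes, held a half-site 170 bases, a GC box 100 bases and CCAAT boxes 224 and 62 bases before it. The window of the second held GC boxes 239 and 53 bases before it and no match to the other motifs. The Plin4 window held a CCAAT box 18 bases before its start, in the part that is not shown, and the Plin1 window held no match. Among all 32851 windows of this length, 14.0% held a half-site, 0.0335% a DR1, 12.4% a TATA box, 32.7% a GC box, 6.02% an E-box and 33.8% a CCAAT box. Such windows were at hand for 9 of the 10 members, all but Cidea. In the Plin2 window a half-site lay 218 bases and a CCAAT box 73 bases before the start. The Plin3 window held GC boxes 103, 19 and 14 bases and a CCAAT box 75 bases before the start. Cideb had a TATA box at 172 and a GC box at 144 bases, and Fitm2 a GC box at 68 bases. The windows of Cidec and Fitm1 held no match.

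In WT the CIDE gene Cidea was the most abundant of the 10, with a mean of 1604 FPKM, which over all 6 libraries placed it 27th among the genes listed. Because FPKM are per length, levels can be set side by side between genes. Cidec (374 FPKM), Plin2 (311 FPKM), Plin1 (246 FPKM) and Plin4 (195 FPKM) followed, and each of these overlapped with the next in its range over the WT libraries. Plin5 (92.0 FPKM) and Fitm2 (83.5 FPKM) came below them with overlapping ranges. Plin3 (24.8 FPKM), Fitm1 (3.45 FPKM) and Cideb (0.14 FPKM) were lower, with no overlap between neighbours. In KO the order differed in that Plin4 (188 FPKM) stood above Plin1 (93.2 FPKM) with no overlap, and Fitm2 (77.0 FPKM) stood above Plin5 (35.8 FPKM) with no overlap. The plot of levels by library shows this order on a log axis.

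**Figure D1:**
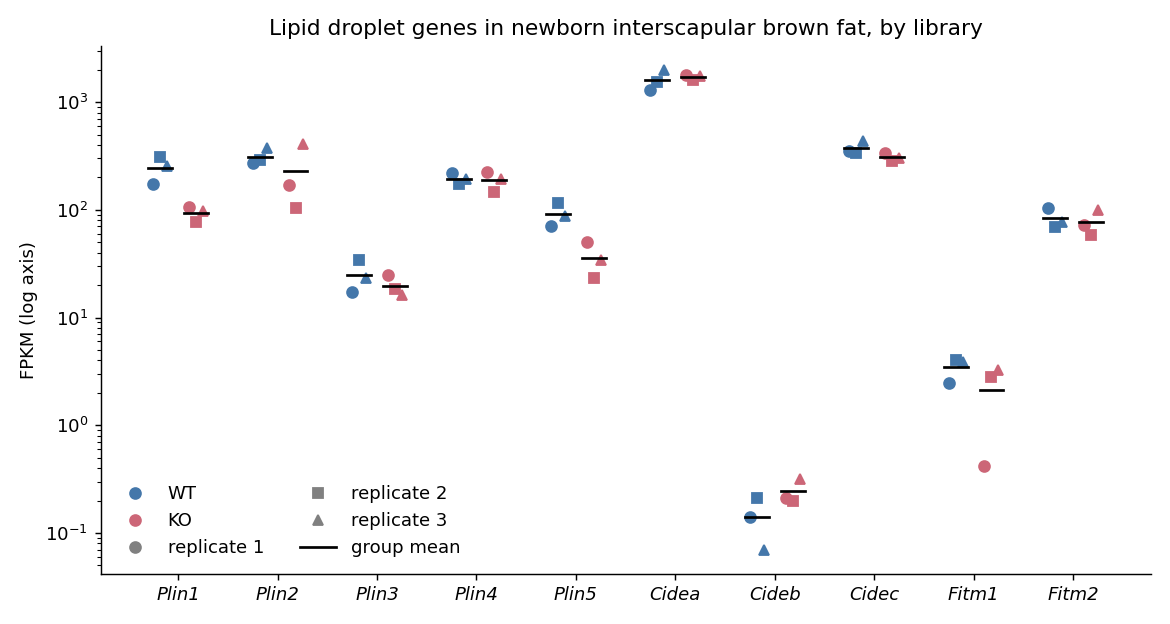
FPKM of the 10 lipid droplet genes (log axis) in the 3 WT libraries (blue) and the 3 KO libraries (red), with the replicate number as the symbol and the group mean as a bar. The KO points of Plin1 and Plin5 lie below all WT points, and Plin2 is spread from 104.97 to 409.47 FPKM within KO.

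Of the 9 members tested, 2 passed the threshold, Plin1 and Plin5, both lower in KO, against 1.01% of all genes tested in that direction. The same 2 had an unadjusted p under 0.05 in limma, as did 19.2% of all genes tested. The members' median log2 fold change was −0.28, and the median over all genes was 0.01. The KO values lay below all WT values in 3 members, Plin1, Plin5 and Cidec, as they did in 11.4% of all genes tested, and no member had all KO values above WT. The members were picked with earlier results of these data known, so these counts describe the family and do not set it apart from other genes.

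Plin1 encodes perilipin 1, the main coat protein of adipocyte droplets, which holds back the lipase activator ABHD5 until protein kinase A phosphorylates it. Its values were 173.81, 309.34 and 253.85 FPKM across WT replicates 1 to 3, against 106.01, 76.59 and 96.88 FPKM across KO replicates 1 to 3. The groups did not overlap, and WT replicate 1 was the WT library nearest to KO. The WT mean was 246 ± 68.1 and the KO mean 93.2 ± 15.1 FPKM (SD, n = 3 each), which is 2.64-fold lower. On the log2(FPKM + 1) scale, which holds for every fold change given here, the difference was −1.36 (standard error, SE, 0.22, limma, adjusted p 0.0267).

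Plin5 encodes perilipin 5, a coat protein of oxidative tissues that brings droplets close to mitochondria. Its values were 71.22, 116.63 and 88.03 FPKM across WT replicates 1 to 3, while KO replicates 1 to 3 had 50.26, 23.04 and 34.18 FPKM. The groups were again apart, and KO replicate 2 was the lowest, as it was for Plin1. The means were 92.0 ± 23.0 FPKM (SD, n = 3) and 35.8 ± 13.7 FPKM (SD, n = 3), 2.57-fold lower in KO, with a log2 fold change of −1.37 (SE 0.28, limma, adjusted p 0.0435).

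Both calls were lost without any 1 of 4 libraries. When WT replicate 2 was dropped, the adjusted p (limma) of Plin1 came to 0.108, and for WT replicate 3, KO replicate 2 and KO replicate 3 it came to 0.106, 0.0799 and 0.061. That of Plin5 was 0.183, 0.139, 0.1 and 0.116 for the same 4 omissions. The fold changes stayed between −1.59 and −1.18 for Plin1 and between −1.65 and −1.10 for Plin5 when any 1 library was left out. When genes of low level were kept in limma, adjusted p came to 0.0828 for Plin1 and 0.119 for Plin5, and Plin5 alone missed the threshold with quantile normalization (0.0589) and with a common sum (0.0582).

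Plin2 encodes perilipin 2, which coats droplets in most cell types and is degraded when it is not bound to lipid. Its values were 270.63, 290.22 and 373.60 FPKM across WT replicates 1 to 3, against 168.88, 104.97 and 409.47 FPKM across KO replicates 1 to 3. The KO libraries thus stood on both sides of WT: replicates 1 and 2 were below all WT libraries and replicate 3 was the highest of the 6. The log2 fold change of −0.67 did not pass (SE 0.41, limma, adjusted p 0.417), and its 95% interval ran from −1.60 to 0.27. Within KO the SD of log2(FPKM + 1) was 0.99, against a median of 0.17 over the genes tested, and 1.23% of these genes had a larger one. In WT the SD of Plin2 was 0.24, against a median of 0.20. Without KO replicate 3 the log2 fold change of Plin2 came to −1.21 (limma, adjusted p 0.0768), and without KO replicate 2 to −0.23 (adjusted p 0.802).

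Plin4 encodes perilipin 4, a long coat protein that is abundant in adipocytes and moves onto droplets from the cytosol. Its values were 217.44, 172.49 and 193.95 FPKM across WT replicates 1 to 3, while KO replicates 1 to 3 had 226.35, 146.88 and 191.67 FPKM. KO libraries were both the highest and the lowest of the 6. Plin4 thus had a log2 fold change of −0.06 (SE 0.18, limma, adjusted p 0.892), its 95% interval ran from −0.48 to 0.35, and its sign changed without WT replicate 1 (0.02), without KO replicate 2 (0.10) and with array weights (0.16). The annotation of Plin4 overlaps 17 bases of Hdgfl2 on the other strand.

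Plin3, which encodes a cytosolic coat protein that binds to newly formed droplets, ranged from 17.2 to 34.1 FPKM in WT and from 16.2 to 24.8 FPKM in KO. The ranges overlapped, and the log2 fold change of −0.28 did not pass (SE 0.25, limma, adjusted p 0.576). Its 95% interval ran from −0.85 to 0.29.

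**Figure D2:**
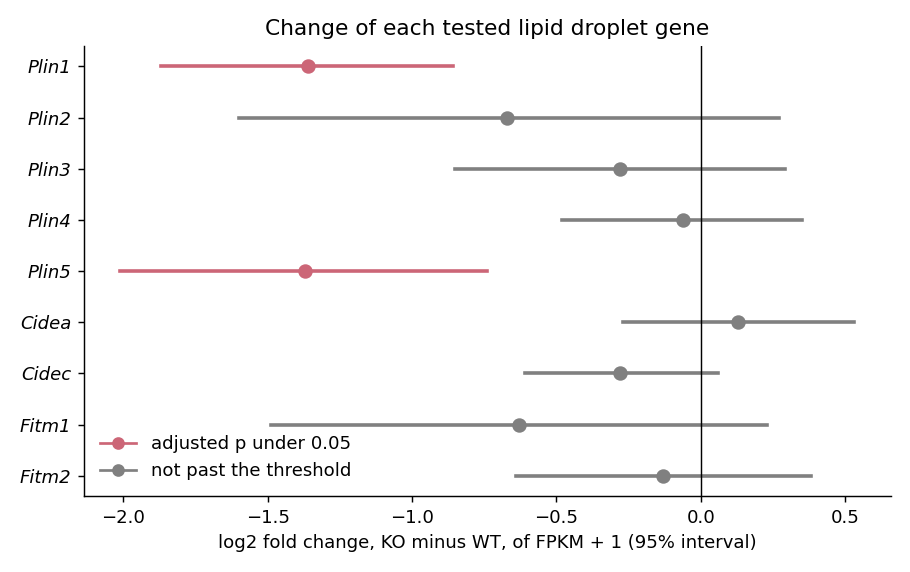
Log2 fold change of FPKM + 1 between KO and WT for the 9 lipid droplet genes tested, with its 95% interval from limma. The intervals of Plin1 (−1.87 to −0.86) and Plin5 (−2.01 to −0.74) lie below 0 with an adjusted p under 0.05 (red), and those of the other members (grey) include 0.

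Cidea, which promotes the fusion and growth of droplets in brown fat, had values of 1299.14, 1525.01 and 1988.16 FPKM across WT replicates 1 to 3, against 1800.92, 1612.00 and 1762.65 FPKM across KO replicates 1 to 3. The KO values all lay within the range of WT. For Cidea the log2 fold change came to 0.13 (SE 0.18, limma, adjusted p 0.747), its 95% interval ran from −0.27 to 0.53, and without WT replicate 1 it was −0.02. A noncoding gene, B430212C06Rik, overlaps 500 bases of Cidea on the other strand and lay at 1.02 to 3.10 FPKM.

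Cidec (chr6:113424634-113435760, minus strand), the CIDE gene of large droplets, also known as Fsp27, had values of 353.49, 337.57 and 431.46 FPKM across WT replicates 1 to 3, while KO replicates 1 to 3 had 334.54, 285.50 and 303.00 FPKM. The groups did not overlap, but KO replicate 1 lay just under WT replicate 2. The means were 374 ± 50.2 and 308 ± 24.9 FPKM (SD, n = 3 each), and the log2 fold change of −0.28 did not pass (SE 0.15, limma, adjusted p 0.35). Cideb (chr14:55754050-55758458, minus strand), which acts in liver and intestine in the loading of lipoproteins with lipid, was at 0.07 to 0.21 FPKM in WT and at 0.20 to 0.32 FPKM in KO. These values came to an estimated 1.2 to 5.58 reads per library, so no difference was detectable at this depth. The gene shares 1451 bases with Nop9 on the other strand, which lay at 5.27 to 7.31 FPKM, and without a stated strand the reads of both genes cannot be told apart. Of the 7 hepatocyte markers found, Alb, Apoa1, Ttr, Serpina1a and Apob were below 1 FPKM in every library. The others were Apoa2, at 0.31 to 1.89 FPKM over all 6 libraries, and Cyp2e1, at 2.29 to 9.71 FPKM.

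Fitm1 (chr14:55575617-55576954, plus strand) encodes the FIT protein of skeletal muscle and heart. Its values were 2.46, 4.0 and 3.90 FPKM across WT replicates 1 to 3, against 0.42, 2.78 and 3.24 FPKM across KO replicates 1 to 3. KO replicate 1 was the lowest library, and the other KO libraries lay within the WT range. The summed FPKM of 10 skeletal muscle markers was 302 in KO replicate 1, 1309 and 1601 in the other KO libraries and 1187 to 1725 in WT, and the part of muscle in the Fitm1 values was not tested. The log2 fold change of −0.63 did not pass (SE 0.38, limma, adjusted p 0.403), and without KO replicate 1 it was −0.13 (adjusted p 0.811). With array weights it was −1.10, past the threshold (limma, adjusted p 0.0368). In that fit 3181 of 13331 genes passed, against 295 in the main fit, and KO replicate 1 had the largest weight in KO, 1.67. The estimated 5.38 to 55.3 reads per library limit this gene, and Gm15932 overlaps 375 of its bases on the other strand.

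Fitm2 (chr2:163466379-163472629, minus strand), the FIT gene of most tissues including fat, had values of 104.25, 68.71 and 77.51 FPKM across WT replicates 1 to 3, while KO replicates 1 to 3 had 72.91, 58.39 and 99.63 FPKM. The groups overlapped, and the log2 fold change of −0.13 did not pass (SE 0.22, limma, adjusted p 0.808). Its sign changed without WT replicate 1 (0.04), without KO replicate 2 (0.05) and with array weights (0.07). A noncoding gene, 2310001K24Rik, overlaps 673 bases of Fitm2 on the other strand and lay at 1.14 to 2.18 FPKM.

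Together the 5 perilipins summed to 750.3, 923 and 933 FPKM in WT replicates 1, 2 and 3 and to 576, 369.9 and 748 FPKM in KO replicates 1, 2 and 3. The groups did not overlap, though KO replicate 3 lay just under WT replicate 1. Mean sums were 869 ± 103 for WT and 565 ± 189 FPKM for KO (SD, n = 3 each), and the exact two-sided permutation test gave p = 0.1, the smallest that 3 libraries against 3 allow. With median-of-ratios scaling or the trimmed mean of M-values the groups overlapped (exact permutation p = 0.2). The summed CIDE genes, of which Cidea made up most, were at 1978 ± 396 FPKM in WT and 2033 ± 122 FPKM in KO (SD, n = 3 each, exact permutation p = 0.9).

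Within the perilipin sum, Plin1 held 23.2% to 33.5% in WT and 12.9% to 20.7% in KO, and Plin5 held 9.44% to 12.6% in WT and 4.57% to 8.72% in KO. Neither share overlapped between the groups (exact permutation p = 0.1 each, two-sided, n = 3 each). Plin2 held 31.4% to 40.1% in WT and was at 29.3%, 28.4% and 54.7% in KO replicates 1, 2 and 3. Plin4 held 18.7% to 29.0% in WT and 25.6% to 39.7% in KO, with overlap (exact permutation p = 0.2). Plin3 held 2.30% to 3.70% in WT and 2.16% to 4.99% in KO. The most abundant perilipin was Plin4 in KO replicates 1 and 2, Plin2 in KO replicate 3 and in WT replicates 1 and 3, and Plin1 in WT replicate 2.

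**Figure D3:**
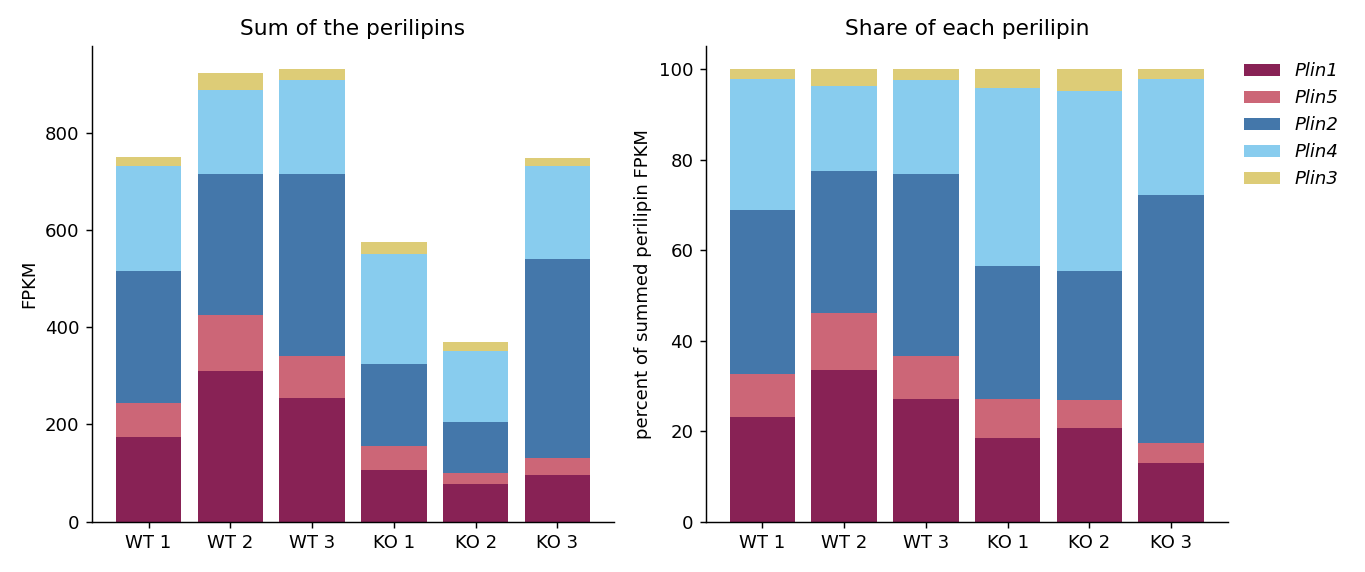
Summed FPKM of the 5 perilipins per library (left) and the percent of that sum held by each (right). The Plin1 and Plin5 segments at the base are smaller in every KO library than in any WT library, and KO replicate 3 has the largest Plin2 segment, 54.7%.

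Ratios between genes of the same library do not move with its scaling, and they set the members against each other directly. Together with the shares and the sums, of which the sums do move with scaling, there were 20 quantities computed within a library. The exact permutation test cannot go below p = 0.1, and 12 of the 20 reached that value. Their Benjamini-Hochberg adjusted p was 0.167, and none was lower. The log2 ratio of Plin5 to Plin1 was −1.41 ± 0.12 in WT and −1.44 ± 0.33 in KO (SD, n = 3 each, exact permutation p = 1.0). For the neighbours Plin5 and Plin4 the log2 ratio was −1.61, −0.56 and −1.14 in WT and −2.17, −2.67 and −2.49 in KO, with the groups apart (exact permutation p = 0.1). Plin1 was lower against both Cidea and Cidec. All ratios in this paragraph were added after the values were seen. Plin4, Cidea and Cidec had not passed the test, so the lower ratios to them follow from the falls of Plin5 and Plin1 and are no separate evidence. The log2 ratio of Plin1 to Cidea was −2.72 ± 0.37 in WT and −4.22 ± 0.16 in KO, and that of Plin1 to Cidec −0.64 ± 0.46 and −1.73 ± 0.14 (SD, n = 3 each, exact permutation p = 0.1 each), with no overlap in either.

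The log2 ratio of Cidec to Cidea was −1.88, −2.18 and −2.20 in WT and −2.43, −2.50 and −2.54 in KO replicates 1, 2 and 3. This was a small shift of −0.40 that separated the groups (exact permutation p = 0.1). The log2 ratio of Plin2 to Plin1, a measure of the common coat against the adipocyte coat, was 0.64, −0.09 and 0.56 in WT and 0.67, 0.45 and 2.08 in KO. It overlapped between the groups (exact permutation p = 0.4), and KO replicate 3 alone stood apart: the difference between the group means was 0.70 with it and 0.20 without it.

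In bulk tissue, fewer cells of a type and less RNA per cell cannot be told apart, so the members were also set against adipocyte genes. These ratios, too, were added after the values were seen. Fabp4 and Adipoq had not passed the test, so the lower ratios to them follow from the falls of Plin1 and Plin5. The log2 ratio of Plin1 to Fabp4, a fatty acid binding protein of adipocytes, was −6.04 ± 0.27 in WT and −7.35 ± 0.25 in KO (SD, n = 3 each), with no overlap (exact permutation p = 0.1), and that of Plin5 to Fabp4 was −7.45 ± 0.21 and −8.78 ± 0.54. The ratio of Plin1 to Adipoq, the adiponectin gene, went from −2.01 ± 0.38 to −3.63 ± 0.32 on the log2 scale (exact permutation p = 0.1). Against Ucp1, the uncoupling protein of brown fat, the log2 ratio of Plin1 was −4.65, −4.31 and −4.62 in WT and −4.77, −4.47 and −5.21 in KO, with overlap (exact permutation p = 0.4). Ucp1 itself had a log2 fold change of −1.08 that did not pass (limma, adjusted p 0.0804). The summed FPKM of 8 general adipocyte markers was 15926 to 19481 in WT and 16311 to 18159 in KO. Most of this sum was Fabp4, so it adds little to the ratios to Fabp4. That of 8 brown adipocyte markers, most of it Ucp1, was 5249.9 to 7747 in WT and 2771 to 4555 in KO. Of the 8 general markers 1 passed, Lep, at 0.91 to 2.22 FPKM in WT and 0.06 to 0.13 FPKM in KO. Only its WT values carried it past the filter at 0.5 FPKM, so its call carries little weight. The others had log2 fold changes of −0.66 (Cebpa), −0.49 (Adrb3), −0.07 (Fabp4), 0.20 (Pparg and Retn), 0.24 (Adipoq) and 0.34 (Cfd). Of the 8 brown markers 1 passed, Otop1, lower in KO. KO values also lay below all WT values in Ucp1, Prdm16 and Ebf2. The groups overlapped in Cox7a1 (−0.06), Zic1 (−0.12), Dio2 (−0.23) and Ppargc1a (0.52).

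**Figure D4:**
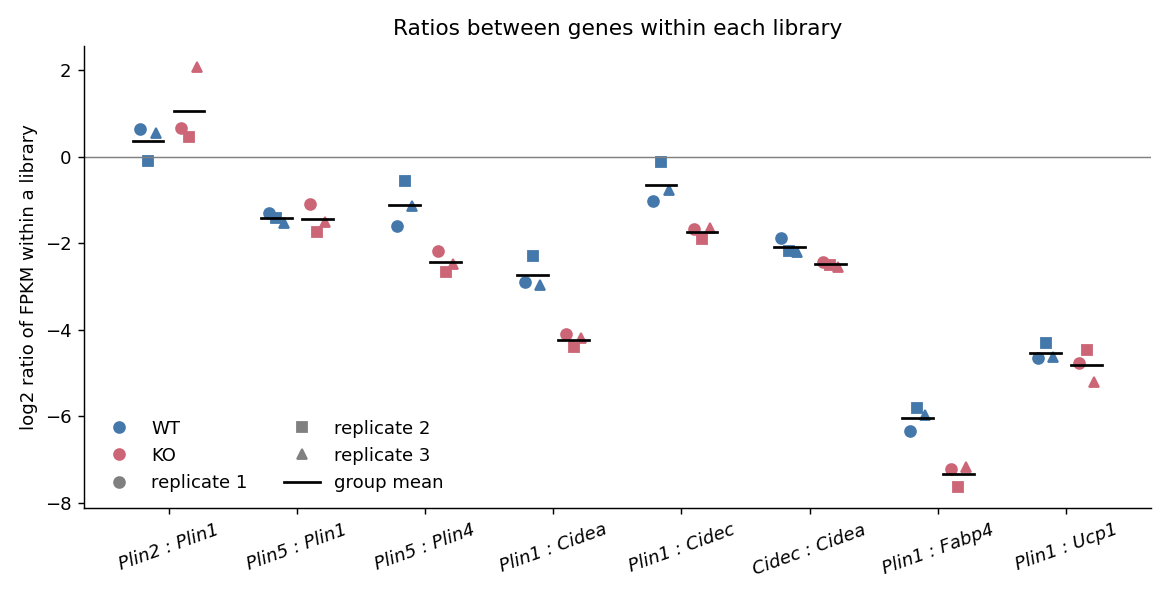
Log2 ratio of the FPKM of named gene pairs within each library, WT in blue and KO in red, with the replicate number as the symbol and the group mean as a bar. Ratios of Plin1 to Cidea, Cidec and Fabp4 and of Plin5 to Plin4 are lower in every KO library than in any WT library, while Plin5 to Plin1 and Plin1 to Ucp1 overlap.

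Other cell types in the depot were followed through their markers. Macrophages, which also make Plin2, had a summed FPKM over 7 markers of 68.7 to 103 in WT and 83.1 to 125 in KO, with none of the 7 past the threshold. KO replicate 3, which had the most Plin2, was at 106 and KO replicate 2, which had the least, at 125. For 7 fibroblast and preadipocyte markers the sum was 1145 to 1484 in WT and 1204 to 1993 in KO, and 1 passed, Ly6a, which was higher. Sums for 5 endothelial markers were 415 to 494 and 414 to 477. The 5 erythroid markers summed to 11012 FPKM in WT replicate 3 and to 2345 to 3894 in the other libraries. For 7 genes of epidermis and sebaceous gland the sum was 3.60 to 3.92 in WT and 4.16 to 7.24 in KO, and Krt5, Krt14, Krt1 and Awat2 were below 1 FPKM in every library. The part of these cells in the members' values was not tested.

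The genes whose pattern over the 6 libraries was most like that of Plin1 were found among 5986 other genes averaging 10 FPKM or more, by the root mean square difference of log2(FPKM + 1) after each gene's mean was taken off. They were Tubb4b, a tubulin gene, at 0.131, Reep6 at 0.191, Plin5 at 0.197, Lbh at 0.207 and Apold1 at 0.218. Plin5 was thus the third gene in this order, while Plin3 was at 0.569, Cidec at 0.61, Plin2 at 0.657, Plin4 at 0.734, Fitm2 at 0.766 and Cidea at 0.779. Tubb4b had values of 158.29, 229.26 and 242.17 FPKM across WT replicates 1 to 3, against 103.72, 65.45 and 87.72 FPKM across KO replicates 1 to 3. The log2 fold changes were −1.28 for Tubb4b, −1.29 for Reep6, −1.41 for Lbh and −1.47 for Apold1. These genes were picked for their likeness to Plin1, which was lower in KO, so their fold changes follow from the choice and are given with no test.

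Other genes of the lipid droplet were taken from 5 lists holding 87 genes, with no gene in common with the 10. Among 13 genes of lipolysis at the droplet surface, 0 passed with limma, against 2.21% of all genes tested, and 4 had an unadjusted p under 0.05, against 19.2% of all genes. There were 8 fold changes below 0 and 5 above, with a median of −0.34. Those with the smallest p were Prkaca, the catalytic subunit of protein kinase A, with a log2 fold change of −0.83 (limma, adjusted p 0.0559), and Mgll, monoglyceride lipase, with −0.79 (limma, adjusted p 0.0674). Abhd5, the partner that Plin1 holds, was at 67.7 to 82.0 FPKM in WT and 40.3 to 54.3 FPKM in KO without overlap (limma, log2 fold change −0.65, adjusted p 0.0717), and Pnpla2, the lipase that ABHD5 activates, was at 922 to 1367 FPKM in WT and 1042 to 1660 FPKM in KO with overlap. Abhd5 and Pnpla2 lie outside the rule for named genes and were chosen after their values were seen.

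Of 17 genes of triglyceride synthesis, 15 were tested and 1 passed, lower in KO, against 1.01% of all genes in that direction. An unadjusted p under 0.05 was found for 6 (limma, 19.2% of all genes), and 10 were below 0 and 5 above, with a median of −0.13. The gene that passed was Agpat2, an acyltransferase that makes phosphatidic acid. Its values were 231.83, 528.81 and 621.10 FPKM across WT replicates 1 to 3, while KO replicates 1 to 3 had 145.59, 101.30 and 53.46 FPKM, a log2 fold change of −2.18 (SE 0.42, limma, adjusted p 0.0417). The call ended when WT replicate 2 (adjusted p 0.173), WT replicate 3 (0.141), KO replicate 2 (0.098) or KO replicate 3 (0.0953) was left out of limma, and also without the filter on low values (0.118), with robust eBayes (0.109) and with the replicate block (0.068).

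Of 31 genes of droplet formation and other droplet surface proteins, 30 were tested, and 2 passed, 1 lower and 1 higher, against 2.21% of all genes. An unadjusted p under 0.05 was found for 7 (limma, 19.2% of all genes). There were 16 below 0 and 14 above, with a median of −0.06. Clstn3, whose locus gives rise in brown fat to a short form that acts on droplets, had values of 21.68, 27.21 and 32.20 FPKM across WT replicates 1 to 3, against 9.69, 3.33 and 6.28 FPKM across KO replicates 1 to 3. Its log2 fold change was −1.99 (SE 0.30, limma, adjusted p 0.0216), and the table gives 1 value for the locus, so the forms are not separated. Without WT replicate 2, WT replicate 3 or KO replicate 3 the call was lost (limma, adjusted p 0.0954, 0.101 and 0.0512), as it was without the filter (0.0803). Mettl7a1, a methyltransferase-like protein of droplets, rose from 9.76 ± 2.39 to 19.5 ± 1.82 FPKM (SD, n = 3 each, log2 fold change 0.95, limma, adjusted p 0.0406), and that call was lost whichever library was left out, at adjusted p of 0.0547 to 0.175, as well as without the filter (0.0975) and with the replicate block (0.0569). Bscl2, which encodes seipin and was chosen after its values were seen, was at 91.4 to 165 FPKM in WT and 93.3 to 127 FPKM in KO, with overlap.

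Of 14 transcription factors and coactivators known to act on perilipin or CIDE genes, 0 passed with limma (2.21% of all genes did), 6 had an unadjusted p under 0.05 (19.2% of all genes did), and 10 were below 0 and 4 above, with a median of −0.37. Prdm16, a coregulator of brown fat identity, went from 4.76 ± 0.574 to 2.19 ± 0.709 FPKM (SD, n = 3 each, log2 fold change −0.87, limma, adjusted p 0.0519), and Cebpb from 52.4 ± 7.06 to 27.5 ± 9.59 FPKM (−0.95, limma, adjusted p 0.0674). Pparg, the nuclear receptor that drives adipocyte genes including Plin1 and was chosen after its values were seen, was at 163 to 226 FPKM in WT and 185 to 262 FPKM in KO, with overlap (limma, adjusted p 0.604). Of 12 genes of droplet protein turnover and lipophagy, 0 passed with limma, 6 had an unadjusted p under 0.05 (again against 2.21% and 19.2% of all genes), and 6 were below 0 and 6 above, with a median of −0.04. Those with the smallest p were Atg7 (log2 fold change 0.66, limma, adjusted p 0.0838) and Lipa, the lysosomal acid lipase (−0.53, limma, adjusted p 0.117).

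**Figure D5:**
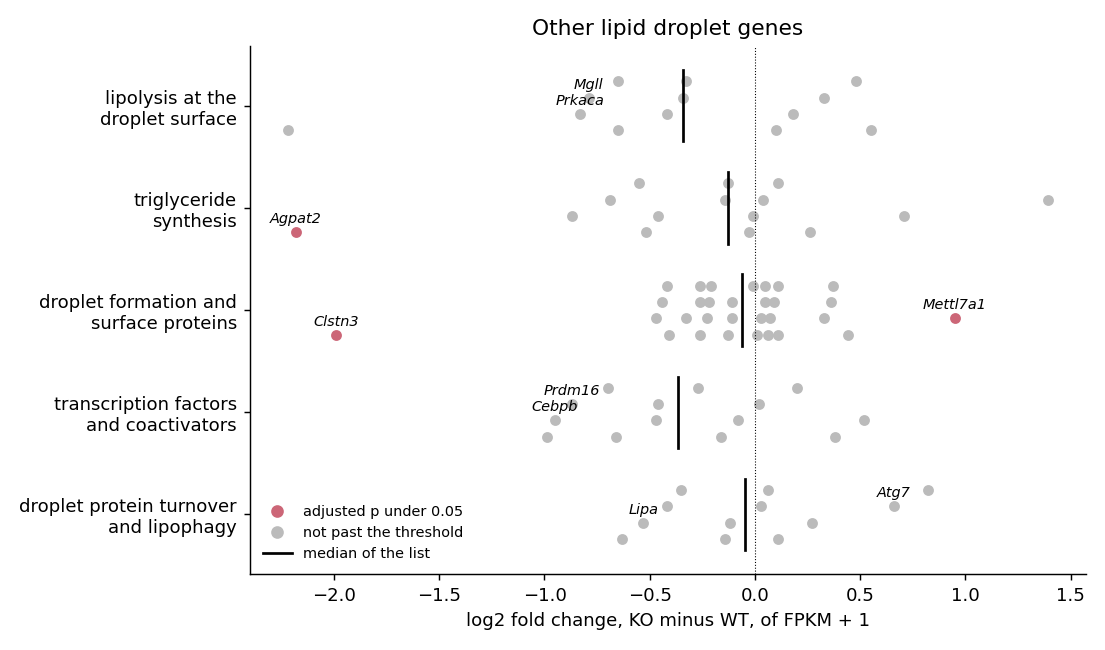
Log2 fold change of FPKM + 1 between KO and WT for the 84 tested genes of 5 lists of other lipid droplet genes, with each list's median as a bar. Points past an adjusted p of 0.05 are red (Agpat2, Clstn3 and Mettl7a1), and the other points, with those of smallest p named, are grey.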

How the data were processed

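Bulk RNA-seq of total interscapular brown fat gave 6 libraries, 3 WT and 3 KO, grouped by their titles. The deposited table holds FPKM with 2 decimals per the file headers. The submitters' processing notes name HISAT2 2.0.4, Bowtie2 2.2.5, DESeq2 and the build mm10, with no role or order; the counting tool, annotation and strand handling are not given in the sources used here. The members and lists were chosen with earlier results of these data known.

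FPKM are not counts, so log2(FPKM + 1), with no further scaling, was fitted with limma 3.58.1 in R 4.3.3 (eBayes with trend, no covariates) for genes averaging 0.5 FPKM or more, and p-values were adjusted by Benjamini-Hochberg over all 13331 genes at 0.05. Values within a library were compared by an exact two-sided permutation test. The fit was tested on simulated data: of 200 genes changed by 1 on the log2 scale among 13171 tested, 88.5% were called, with 14 unchanged genes. The simulated noise was normal, with an SD smoothed over genes of similar level and equal in all libraries. No gene of low level was changed. The share called therefore does not hold for genes of low level or of wider spread, such as Plin2, nor for libraries of unequal quality.

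Depth was estimated from the steps between low FPKM of single-transcript genes of 500 to 1300 bases, with 50 bases taken off each length. The depth that best brought these values to whole reads was taken. At that depth 72.7% to 78.2% of 372 to 405 values per library fell within 0.2 of a whole read. Part of the values would lie that near by chance, and the search for the best depth raises the share. Reads behind a value are estimates, and counting error is the least error they carry.

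Positions of genes came from GENCODE vM21 (GRCm38). Named genes were the 10 members, the label checks, the 5 genes most like Plin1, and from each list up to 5 genes past the threshold or otherwise the 2 with the smallest p; others are said to be chosen later. Older symbols were matched through RefSeq synonyms, and 86 of 87 list genes were found. Same-numbered WT and KO libraries deviated from their group means with correlations of 0.0681, 0.0433 and 0.0433, and no pairing was assumed. The alternatives tried were 2 other pseudocounts (0.1 and 0.01), no filter and a filter at 5 FPKM, 4 scalings, eBayes without trend and robust, array weights, the replicate block and leaving out each library. Of the within-library quantities, the ratios other than Plin2 to Plin1 and Cidec to Cidea, and the CIDE sum, were added after seeing the data.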

Additional observations from a re-analysis of the deposited data

How the results depend on the processing

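The number of genes past the threshold was 295 (134 lower, 161 higher). It was 35 without the filter on low values, 191 with a common sum, 3181 with array weights and 167 with the replicate block, and ran from 31 to 370 when 1 library was left out, 31 being the number without WT replicate 3 and 370 that without WT replicate 1. Lower genes made up 45.4% of the calls, 25.8% without KO replicate 2, 55.4% without KO replicate 1 and 54.0% with the trimmed mean of M-values. The array weight was 6.70 for WT replicate 2 and 0.368 to 1.67 for the rest. The number of members past the threshold was 2. It was 0 without the filter, where 19241 genes were tested, 1 with quantile normalization, 1 with a common sum and 0 with the replicate block (limma, adjusted p 0.0523 for Plin1 and 0.0775 for Plin5), in which fewer degrees of freedom remain. Leaving out 1 library gave 0 to 2 members. Why any of these counts moved was not tested. Fold changes of Plin1, Plin2, Plin3, Plin5, Cidec and Fitm1 kept their sign in all alternatives that gave them a value. Signs turned for Plin4 (0.16 with array weights, −0.21 to 0.10 without 1 library), Fitm2 (0.07 and −0.33 to 0.05) and Cidea (−0.02 to 0.29 without 1 library), for causes that were not tested. The group difference kept its direction in the alternatives run for it in the log2 ratio of Plin2 to Plin1 (0.20 to 1.01), in that of Cidec to Cidea (−0.46 to −0.30) and in the perilipin sum (−395 to −206 FPKM). It moved by less than the SD pooled over both groups, though not in each case by less than that of 1 group. A filter at 5 FPKM removed Fitm1, and Cideb was fitted only without a filter. Depth limits Cideb and Fitm1.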

Other observations

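KO replicate 3, which had the highest Plin2, was also the highest or lowest library in other droplet genes, which were singled out after their values were seen. G0s2, which encodes an inhibitor of the lipase ATGL, had values of 471.79, 512.17 and 521.21 FPKM across WT replicates 1 to 3, against 428.89, 231.58 and 11.58 FPKM across KO replicates 1 to 3. The groups did not overlap, with a log2 fold change of −2.22 that did not pass (limma, adjusted p 0.297). Dgat2, which makes triglyceride from diglyceride, was at 86.05 to 171.51 FPKM in WT, against 114.43, 89.46 and 32.85 FPKM in KO, and Srebf1, a transcription factor of lipid synthesis, at 34.44 to 42.80 FPKM in WT and 25.96, 25.52 and 10.97 FPKM in KO. Ppara, a nuclear receptor that binds fatty acids, was at 27.75 FPKM in KO replicate 3 and at 69.39 to 83.64 FPKM in the other 5 libraries. Lpin1, a phosphatidate phosphatase, was at 29.04 to 34.75 FPKM in WT, against 88.85, 44.31 and 157.98 FPKM in KO, and Map1lc3b, a marker of autophagosomes, was at 331.06 FPKM in KO replicate 3 and at 79.81 to 156.34 FPKM elsewhere.

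Among the 84 tested genes of the 5 lists, KO replicate 3 held the lowest value of the 6 libraries in 22 (26.2%) and the highest in 19 (22.6%). Over all 13331 genes tested it held the lowest in 21.7% and the highest in 14.9%. KO replicate 2 held the lowest value in 22.6% of the list genes and in 11.8% of all genes. WT replicate 1 held the highest value in more list genes than any other library, 20 (23.8%), against 16.8% of all genes.

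The nearest genes on either side of the members, other members left out, were 18, and 14 of them were tested, with adjusted p of 0.099 to 0.995 (limma). The KO values lay below all WT values in 3, namely Tubb6 (log2 fold change −0.65) and Impa2 (−0.77) beside Cidea and Jagn1 (−0.41) beside Cidec, and above them in 1, Hdgfl2 (0.31) beside Plin4. Such non-overlap was seen in 11.4% and 13.6% of all genes tested. The groups overlapped in the other 10, among them Pex11a (−0.28) and Kif7 (−0.17) on either side of Plin1 and Lrg1 (−0.04) on the side of Plin5 away from Plin4.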
